A study of Drosophila melanogaster with 12 samples.

Results

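Cytochrome P450 genes, named *Cyp* with a family number and a subfamily letter, were followed in adult male flies that carried the *Mettl16* 1-9 allele and in *w1118* control males. The members were every gene of the deposited gene table whose name matched that pattern, 85 of 21076 genes, in 20 families and 45 subfamilies. *Mettl16* encodes an RNA m6A methyltransferase, and the 1-9 allele is a frameshift deletion made with CRISPR/Cas9 in the first exon and kept as a single mutant line; the Cas9 used to make it was driven by *nanos*, a germline promoter. The controls were *w1118* flies of a separate stock. Poly(A) RNA came from whole bodies of about 50 adult males per preparation, with 3 replicates per genotype, and was profiled by MeRIP-seq, in which RNA fragments bound by an m6A antibody (IP) are sequenced beside the unselected input. Expression was taken from the 6 input libraries, and the age of the flies was not given in the sources used here.

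P450 enzymes are heme proteins that insert an oxygen atom into their substrates. In insects the enzymes of the endoplasmic reticulum receive electrons from the reductase Cpr, whereas those of the mitochondrial clan receive them through adrenodoxin-like ferredoxins. Some P450s serve fixed steps in hormone or cuticular lipid metabolism, and many others, often in tandem clusters of related copies, act on plant compounds and insecticides. Transcripts of the second kind are known to vary among fly strains.

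The input libraries held 5.32 to 6.48 gigabases of aligned sequence each, as recovered from coverage and FPKM (fragments scaled to exon length and to the mapped total of the library). *Mettl16*, listed as CG7544, was at 0.971, 0.824 and 1.19 FPKM in *w1118* and at 0.430, 0.285 and 0.232 FPKM in the mutants, so the genotypes did not overlap. Markers of several organs differed between the genotypes. Of the marker genes listed, 7 of 8 for fat body and 7 of 8 for Malpighian tubule were higher in the mutants. Lower in the mutants were 4 of 8 for midgut, 4 of 5 for testis and 5 of 5 for accessory gland. Over all tested genes, 22.9% were higher and 26.7% were lower (limma, adjusted p under 0.05). The midgut markers *alphaTry*, *thetaTry*, *Amy-p* and *lab* did not pass that test. In whole-body RNA, fewer cells of a type and less RNA per cell cannot be told apart.

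*Cyp4g1* was the most abundant member in every library. It encodes the oenocyte decarbonylase that completes the synthesis of cuticular hydrocarbons. Its level was 1514, 1879.7 and 1441 FPKM in *w1118* and 1713, 1540.1 and 1959.6 FPKM in the mutants. The genotypes overlapped, and the log2 fold change was 0.11 with a 95% interval from -0.18 to 0.40 (limma, adjusted p = 0.491). *Cyp4g1* made up between 53.4% and 63.8% of the summed FPKM of all members in a library. The sum of the other 84 members was 1256 to 1339 FPKM in *w1118* and 1094 to 1196 FPKM in the mutants.

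The next members in *w1118* were far below *Cyp4g1*. *Cyp6d5* was at 134 ± 7.34 FPKM (SD, n = 3), *Cyp313a1* at 121 ± 7.32 FPKM, and *Cyp9f2* at 82.2 ± 4.48 FPKM. *Cyp6d5* and *Cyp313a1* overlapped in their library values, as did *Cyp9f2* and *Cyp6g1*, which stood at 77.8 ± 5.48 FPKM. *Cyp12a4*, of the mitochondrial clan and linked to lufenuron resistance, followed at 66.2 ± 2.25 FPKM and lay below each of these. *Cyp6a20* at 52.2 ± 2.08 FPKM, *Cyp9b2* at 50.3 ± 3.15 FPKM and *Cyp28d1* at 50.2 ± 2.58 FPKM were not separated from each other by their spread, and *Cyp312a1* was the tenth at 46.7 ± 0.680 FPKM. Within these 10 abundant members, the mutants kept overlapping values for *Cyp4g1*, *Cyp6d5* and *Cyp9f2*, and lay below every control for the other 7. Because the 10 were ranked by the control values compared here, the choice favours genes that are high in the controls. Over all tested genes, the genotypes did not overlap for 60.3%, counting both directions. *Cyp313a1* was at 127, 123 and 113 FPKM in *w1118* and at 75.9, 98.5 and 78.3 FPKM in the mutants, with a log2 fold change of -0.52 ± 0.10 (SE, adjusted p = 0.00379). *Cyp28d1* fell from 50.4, 52.7 and 47.5 FPKM to 34.0, 26.3 and 27.6 FPKM (-0.76 ± 0.10, adjusted p = 0.000444). *Cyp9b2* fell from 46.9, 53.1 and 51.0 FPKM to 40.9, 31.9 and 38.1 FPKM (-0.44 ± 0.10, adjusted p = 0.00604). The declines of the remaining members of this group outside the *Cyp6* family were smaller. *Cyp12a4* fell from 65.9, 68.6 and 64.2 FPKM to 56.7, 51.2 and 55.7 FPKM (-0.28 ± 0.06, adjusted p = 0.00569). *Cyp312a1* fell from 47.5, 46.2 and 46.5 FPKM to 34.5, 37.4 and 39.4 FPKM (-0.33 ± 0.06, adjusted p = 0.00287). Neither *Cyp6d5* nor *Cyp9f2* was called. *Cyp6d5* was at 140.2, 136 and 126 FPKM in *w1118* and at 167, 131 and 128 FPKM in the mutants, with an interval of the log2 fold change from -0.16 to 0.31. *Cyp9f2* was at 82.5, 86.5 and 77.6 FPKM and at 90.5, 78.8 and 80.3 FPKM, with an interval from -0.15 to 0.18.

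**Figure D1:**
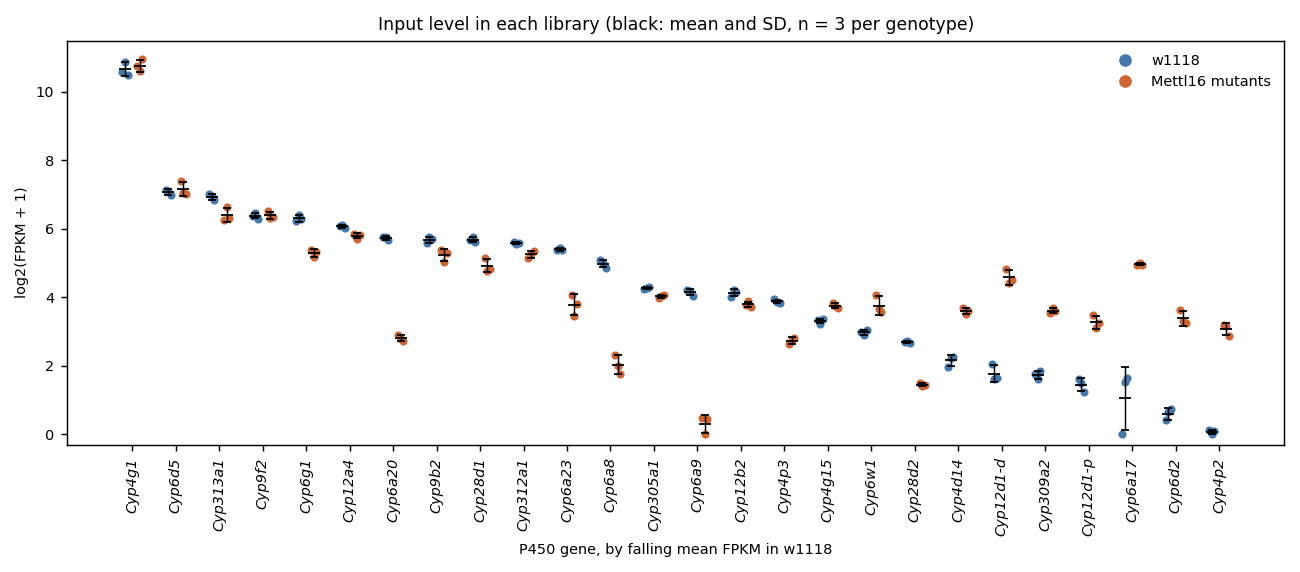
Input level of 26 P450 genes as log2(FPKM + 1) in each of the 3 w1118 (blue) and 3 Mettl16 mutant (orange) libraries, ordered by falling mean in w1118; black marks are the mean and SD. Cyp4g1 overlapped between genotypes near the top of the scale, Cyp6a20, Cyp6a8 and Cyp6a9 fell in the mutants, and Cyp12d1-d, Cyp6a17, Cyp6d2 and Cyp4p2 rose from low control levels.

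Differences between genotypes were tested with limma on log2(FPKM + 1) across the 13866 genes that averaged 0.5 FPKM or more, among them 75 members. At an adjusted p under 0.05, 21 of the 75 members (28.0%) were higher in the mutants, beside 22.9% of all tested genes. Another 27 members (36.0%) were lower, beside 26.7% of all tested genes. In either direction, 48 members (64.0%) were called, beside 49.6% of all tested genes. A difference is termed large here when it also reached 1 on the log2 scale. This held for 14 members (18.7%), beside 5.81% of all tested genes. Of the 14, 7 were higher (9.33%, beside 2.47%) and 7 were lower (9.33%, beside 3.35%). The median size of the log2 fold change was 0.35 over the tested members and 0.24 over all tested genes. Taken with its sign, the median was -0.05 for the members and 0.01 for all genes. The 3 mutant and the 3 control libraries did not overlap for 51 of the 75 members (68.0%) and for 60.3% of all tested genes. These shares describe the family and were not tested against other gene families. The smallest of the 14 large differences was that of *Cyp6g1* (-1.01), and *Cyp6a2* was called and lay just short of it at 0.98.

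**Figure D2:**
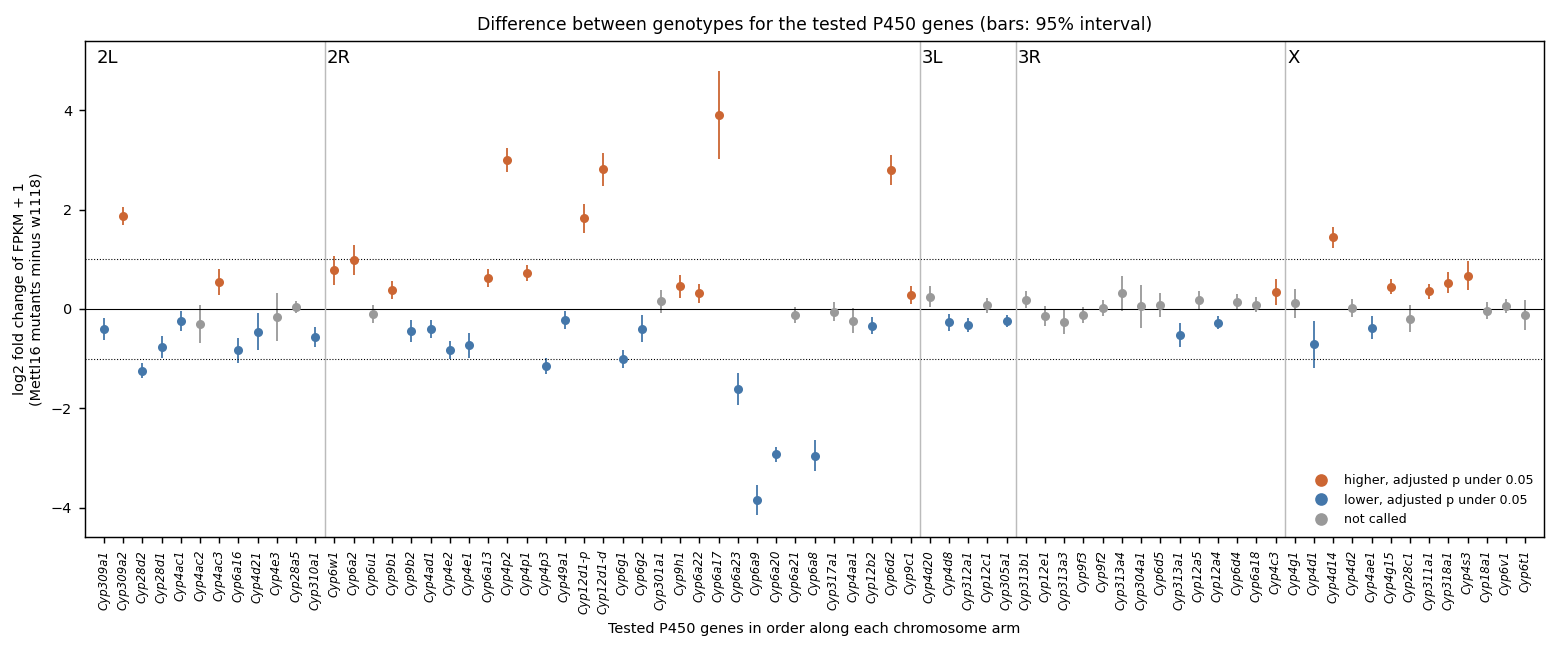
Log2 fold change of FPKM + 1 (Mettl16 mutants minus w1118) with its 95% interval for the 75 tested P450 genes, in order along the chromosome arms; orange is higher and blue lower at an adjusted p under 0.05, grey is not called, and dotted lines mark a size of 1. The differences past 1 lay mostly on arm 2R, and no gene of arms 3L and 3R passed that size.

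The called members were also counted by chromosome arm. On arm 2R, which carries *Mettl16*, 26 of the 31 tested members were called (83.9%, beside 52.3% of all tested genes of the arm), 13 higher and 13 lower. Of the 14 large differences, 11 lay on 2R (35.5% of its tested members, beside 7.28% of all its tested genes), 2 on 2L and 1 on X. On 3R, 3 of 14 tested members were called, 1 higher and 2 lower, beside 48.3% of all tested genes of that arm. On 3L, 3 of 5 were called, all 3 lower, beside 50.8% of all tested genes. On X, 5 of 13 were higher and 2 were lower, beside 42.2% of all tested genes called there, 456 higher and 425 lower. On 2L, 2 of 12 were higher and 7 lower, and over all genes of that arm 53.6% were called, 580 higher and 839 lower. Within 1 Mb of *Mettl16*, 5 of 9 tested members had a large difference (55.6%, beside 13.5% of the 251 tested genes in that interval). All 5 lay in a single tandem cluster, described below. Farther along 2R the count was 3 of 8 members at 1 to 5 Mb and 3 of 14 members beyond 5 Mb, against 7.89% and 5.78% of all genes there. The share of members called at any size ran the other way. It was 66.7% within 1 Mb, 87.5% at 1 to 5 Mb and 92.9% beyond 5 Mb. Over all tested genes of these intervals it was 52.2%, 55.9% and 49.7%. The mutants and the controls were separate stocks. An effect of the allele and a difference in stock sequence, near the allele or elsewhere in the genome, cannot be told apart.

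The members nearest to *Mettl16* form a tandem cluster of 9 P450 genes on 2R (14871366 to 14903095, in the coordinates of the deposited table), about 0.25 to 0.28 Mb from *Mettl16*. Along the cluster the genes changed in opposite directions. Of the 8 tested genes, 2 were higher, 4 were lower and 2 were not called, and 5 of the differences were large. *Cyp6a22*, at the left end, rose slightly, from 4.37 ± 0.329 to 5.68 ± 0.541 FPKM (log2 fold change 0.31 ± 0.08, adjusted p = 0.0157).

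*Cyp6a17* and *Cyp6a23* are adjacent copies on the same strand, and *Cyp6a17* is known for a part in temperature preference behaviour. *Cyp6a17* was listed at 0, 1.85 and 2.13 FPKM in *w1118* and at 29.5, 30.9 and 29.9 FPKM in the mutants, a log2 fold change of 3.91 ± 0.38 (adjusted p = 0.000135). All 3 mutant libraries were far above the controls, and the first control library listed the gene at 0. *Cyp6a23* moved the other way, from 40.7, 42.1 and 40.2 FPKM to 15.8, 9.96 and 13.1 FPKM (log2 fold change -1.61 ± 0.14, adjusted p = 7.1e-05). Since these copies are related in sequence, the assignment of fragments between them is uncertain, and it was not tested here.

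Among the tested genes of the cluster, *Cyp6a9* had the lowest mutant level. It was at 17.5, 17.1 and 15.5 FPKM in *w1118* and at 0.386, 0 and 0.357 FPKM in the mutants (log2 fold change -3.84 ± 0.13, adjusted p = 1.38e-06). *Cyp6a20*, expressed in support cells of olfactory sensilla and linked to male aggression, was at 53.1, 53.6 and 49.8 FPKM in *w1118* and at 6.48, 5.82 and 5.64 FPKM in the mutants. Its log2 fold change was -2.93 ± 0.07 (adjusted p = 1.77e-07), a ratio of means of 8.72, and no library crossed. Of the 5 antennal markers, 2 were lower, beside 26.7% of all tested genes. These were *lush* and *Obp19d*, by 0.84 and 0.52 on the log2 scale. Not called were *Orco* (0.973 and 0.963 FPKM, log2 fold change 0.00 ± 0.14), *Obp83a* (-0.64 ± 0.30) and *Obp83b* (-0.33 ± 0.30). The part of the antennal markers in the difference of *Cyp6a20* was not tested.

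*Cyp6a8*, which responds to phenobarbital and caffeine in flies, was at 32.7, 31.0 and 28.1 FPKM in *w1118* and at 3.99, 2.98 and 2.41 FPKM in the mutants (log2 fold change -2.95 ± 0.13, adjusted p = 4.68e-06). *Cyp6a21* lies between *Cyp6a20* and *Cyp6a8* and was not called, at 9.00 ± 0.605 FPKM in *w1118* and 8.18 ± 0.439 FPKM in the mutants, with a 95% interval of the log2 fold change from -0.28 to 0.04. *Cyp317a1*, at the right end, was not called either, with an interval from -0.25 to 0.14. The neighbour *Pcf11* on the left did not pass the test (log2 fold change 0.07, adjusted p = 0.336), and *Kank* on the right was lower by 0.23 (adjusted p = 0.0121). Farther left, *Ciao1* was lower by 1.09 (adjusted p = 9.69e-06).

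**Figure D3:**
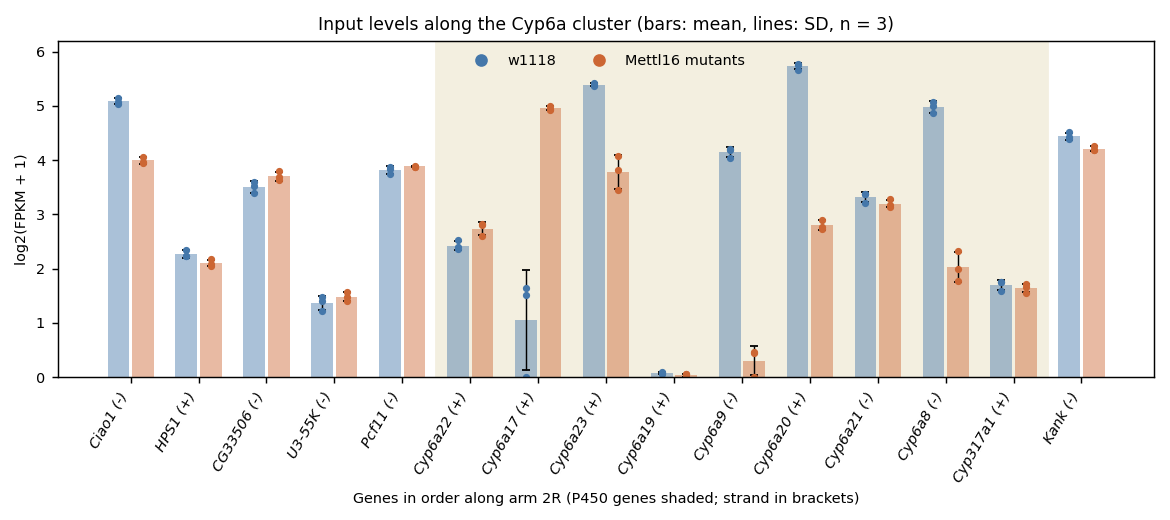
Mean log2(FPKM + 1) with SD and single libraries for the P450 cluster near Mettl16 (shaded) and its neighbours, in order along 2R, in w1118 (blue) and Mettl16 mutants (orange). Cyp6a17 rose, Cyp6a23, Cyp6a9, Cyp6a20 and Cyp6a8 fell, and Cyp6a21 and Cyp317a1 had overlapping values.

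Other tandem groups on 2R also held genes that moved apart. *Cyp4p2*, *Cyp4p1* and *Cyp4p3* follow each other on one strand (9237512 to 9244410), 5.91 Mb from *Mettl16*, inside the span of *hig* on the other strand. *Cyp4p2* was listed at 0.0849, 0 and 0.0742 FPKM in *w1118* and at 8.05, 7.90 and 6.37 FPKM in the mutants (log2 fold change 3.00 ± 0.10, adjusted p = 1.38e-06). *Cyp4p1* was higher by 0.72 ± 0.07, from 33.5 ± 2.26 to 55.9 ± 3.76 FPKM. *Cyp4p3* was lower, from 14.3, 13.5 and 13.3 FPKM to 5.18, 5.72 and 6.06 FPKM (log2 fold change -1.14 ± 0.07, adjusted p = 1.72e-05). None of the 3 genes overlapped between genotypes, and the surrounding gene *hig* rose by only 0.31. *Cyp4e2* and *Cyp4e1*, in contrast, fell together, by 0.83 and 0.73 on the log2 scale. *Cyp9b1* and *Cyp9b2* parted, the weakly expressed *Cyp9b1* rising by 0.38 ± 0.08 and the abundant *Cyp9b2* falling as given above.

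*Cyp12d1-d* and *Cyp12d1-p* are near-identical copies of a mitochondrial P450 that is induced by phenobarbital and linked to DDT resistance. They lie next to each other on 2R (11117225 to 11125647), about 4.02 Mb from *Mettl16*. *Cyp12d1-d* was at 3.13, 2.06 and 2.13 FPKM in *w1118* and at 27.2, 20.1 and 21.8 FPKM in the mutants (log2 fold change 2.81 ± 0.14, adjusted p = 8.22e-06). *Cyp12d1-p* was at 2.04, 1.83 and 1.36 FPKM and at 10.1, 7.54 and 8.51 FPKM (log2 fold change 1.82 ± 0.13, adjusted p = 2.92e-05). Both copies were higher in every mutant library. The division of fragments between them is uncertain because of their sequence identity.

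Outside these clusters, *Cyp6d2* (2R, 22652573 to 22654530), which is needed for resistance to camptothecin, was at 0.328, 0.576 and 0.660 FPKM in *w1118* and at 11.5, 8.80 and 8.44 FPKM in the mutants (log2 fold change 2.79 ± 0.13, adjusted p = 5.58e-06). It lies 7.50 Mb from *Mettl16* on 2R and shares 1023 bases of its span with *nsr* on the other strand, which was lower by 0.50. *Cyp4d14* (X, 2173415 to 2175315) was at 2.93, 3.72 and 3.81 FPKM in *w1118* and at 11.9, 10.5 and 11 FPKM in the mutants (log2 fold change 1.44 ± 0.09, adjusted p = 2.28e-05). No library of either gene crossed between the genotypes. An antisense RNA spans most of *Cyp4d14* and was not called (3.11 and 3.58 FPKM, log2 fold change 0.16). The neighbours of *Cyp4d14* did not follow: *Cyp4d2* was not called (0.02, interval from -0.16 to 0.20), and *Cyp4d1* and *Cyp4ae1* were lower by 0.71 and 0.38.

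On 2L the paired genes *Cyp309a1* and *Cyp309a2* moved apart. *Cyp309a2* (2564886 to 2573037) was at 2.36, 2.05 and 2.57 FPKM in *w1118* and at 10.6, 11.8 and 11.2 FPKM in the mutants (log2 fold change 1.87 ± 0.08, adjusted p = 3.77e-06), whereas *Cyp309a1* was lower by 0.40 ± 0.10. *Cyp28d2* and *Cyp28d1*, the latter linked to nicotine tolerance, fell together. *Cyp28d2* (5207267 to 5209345) was at 5.50, 5.55 and 5.34 FPKM in *w1118* and at 1.80, 1.64 and 1.73 FPKM in the mutants (log2 fold change -1.25 ± 0.07, adjusted p = 9.07e-06). Beside *Cyp28d1*, *CG7742*, which overlaps its end by 51 bases on the other strand, was lower by 0.63. *Cyp28a5*, elsewhere on the arm, was not called, at 38.1 ± 0.85 and 39.0 ± 1.39 FPKM, with an interval from -0.09 to 0.15.

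Among the lists set up by role, the one of genes linked to insecticide responses in flies had 8 tested genes. All 8 passed the test, 4 higher and 4 lower, beside 49.6% of all tested genes and 64.0% of all tested members called. Every tested gene of this list except *Cyp12a4* lies on 2R, where 83.9% of the tested members were called. The list was chosen with earlier results of these data known. *Cyp12d1-d*, *Cyp12d1-p*, *Cyp6a2* and *Cyp6w1* were higher, *Cyp6a2* rising from 3.04 ± 0.290 to 7.06 ± 1.48 FPKM. *Cyp6w1* was at 6.96, 6.46 and 7.28 FPKM in *w1118* and at 15.7, 11.5 and 10.8 FPKM in the mutants (log2 fold change 0.77 ± 0.13, adjusted p = 0.00161). *Cyp6g1* (2R, 12185667 to 12188431), whose overexpression gives DDT resistance, was at 73.1, 83.8 and 76.5 FPKM in *w1118* and at 40.8, 35.0 and 38.9 FPKM in the mutants (log2 fold change -1.01 ± 0.08, adjusted p = 4.55e-05). It was therefore lower in the mutants by a ratio of means of 2.03. *Cyp6a8*, *Cyp6g2* and *Cyp12a4* were lower as well. Many of these transcripts are known from fat body and Malpighian tubule. The summed level of the tubule markers was 116 to 137 FPKM in *w1118* and 181 to 193 FPKM in the mutants, and that of the fat body markers was 454 to 499.5 FPKM and 823 to 926 FPKM. The part of those markers in the differences of this list was not tested.

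In the list for cuticle and hydrocarbon formation, 1 of 3 tested genes was called, beside 49.6% of all tested genes. *Cyp4g15*, the paralog of *Cyp4g1* known from the nervous system, rose from 8.99, 8.37 and 9.30 FPKM to 13.3, 12.5 and 11.8 FPKM (log2 fold change 0.45 ± 0.07, adjusted p = 0.00102). *Cyp301a1*, needed for adult cuticle, was not called. Of 5 listed oenocyte markers, 4 were matched and tested. The fatty acid synthase *FASN2* was lower by 0.56 on the log2 scale, *Hnf4*, which the fat body list also holds, was higher by 0.22, and *FASN3* (0.43 ± 0.19) and *spidey* (-0.02 ± 0.06) were not called. Their summed level was 115 to 129 FPKM in *w1118* and 116 to 125 FPKM in the mutants, and their part in the result was not tested. In the hormone list, 2 of 3 tested genes were lower, beside 26.7% of all tested genes. *Cyp305a1* fell from 18, 18.4 and 18.8 FPKM to 14.8, 15.5 and 15.8 FPKM (log2 fold change -0.24 ± 0.05, adjusted p = 0.00639). *Cyp6g2*, which the insecticide list also holds, was lower too (-0.40 ± 0.12). *Cyp18a1*, which inactivates ecdysone, was not called, at 4.09 ± 0.368 and 3.95 ± 0.131 FPKM. Of the 9 genes of the mitochondrial clan, 2 were higher, both *Cyp12d1* copies, and 3 were lower, *Cyp12a4*, *Cyp12b2* and *Cyp49a1*. These 5 of 9 stand beside 49.6% of all tested genes called. *Cyp12b2* fell from 15.2, 17.5 and 16.9 FPKM to 12.7, 13.7 and 12.2 FPKM (log2 fold change -0.34 ± 0.07, adjusted p = 0.00584), and *Cyp12c1* was not called, with an interval from -0.09 to 0.23. The call of *Cyp49a1* rested on an adjusted p of 0.0495 and was lost under 9 alternatives.

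Genes that work with the enzymes were taken from lists of electron donors, heme metabolism and xenobiotic regulators. The numbers called in these lists stand beside 49.6% of all tested genes called in either direction. *Cpr*, the electron donor of the microsomal P450s, was at 143 ± 5.72 FPKM in *w1118* and 152 ± 8.66 FPKM in the mutants (log2 fold change 0.08 ± 0.06, adjusted p = 0.297). Of the 6 electron donors, *Fdx2* was higher by 0.25, and *Cyt-b5* and the adrenodoxin reductase *dare* were lower by 0.17 and 0.20. Of the 7 heme genes found in the table, only *Coprox* was called, lower by 0.27, and *Alas*, the first step of heme synthesis, was not called (0.08 ± 0.11). Among 6 regulators of the xenobiotic response, only *maf-S*, the small Maf partner of *cnc*, passed the test, falling from 50.3 ± 2.27 to 32.1 ± 1.48 FPKM (log2 fold change -0.63 ± 0.06, adjusted p = 0.000115). *cnc* itself was not called (0.04 ± 0.06), and *Hr96* was not called (-0.04 ± 0.08). The P450 genes of ecdysone synthesis that carry other names, such as *phm*, *sad* and *shd*, were near or below 1 FPKM, and *shd*, the one that could be tested, was not called (0.11 ± 0.10).

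Isoform shares, the FPKM of an isoform over the summed FPKM of its gene, could be tested for 20 members with 46 isoforms. Of the 46, 2 were called (4.35%), beside 4.04% of all tested isoforms, and both belonged to *Cyp12d1-p*. Its 1741-nt isoform FBtr0089419 was listed at 0 in every control library and at 24.4, 15.9 and 17 FPKM in the mutants, or 97.6%, 92.1% and 89.8% of the gene. The 4482-nt isoform FBtr0345674 was at 2.04, 1.83 and 1.36 FPKM in *w1118* and at 0.612, 1.36 and 1.92 FPKM in the mutants, so its values overlapped. The change of share (adjusted p = 0.000307) therefore came with a higher level of the short isoform. The gene value spread both isoforms over one gene length, and on the FPKM of the short isoform alone the log2 fold change was 4.30 (adjusted p = 9.78e-05), against 1.82 for the gene, as fitted in an alternative added after the data were seen.

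*Cyp6a17* could not enter the share test because it was listed at 0 in the first control library. Its isoform FBtr0087451 was listed at 0 in all 3 controls and at 29.4, 29.8 and 28.3 FPKM in the mutants, while FBtr0345527 was at 0, 1.85 and 2.13 FPKM and at 3.18, 4.17 and 4.58 FPKM. In both *Cyp6a17* and *Cyp12d1-p*, the isoform listed at 0 in every control was the one that held most of the mutant level. For *Cyp312a1* the short isoform fell from 62.0, 65.0 and 62.8 FPKM to 38.3, 45.3 and 47.0 FPKM (limma over all isoforms, adjusted p = 0.00784), and the long one overlapped, at 14.9 to 17.6 and 15.6 to 16.8 FPKM. Its share did not pass the test (adjusted p = 0.250), nor did that of *Cyp4d1* (adjusted p = 0.253).

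**Figure D4:**
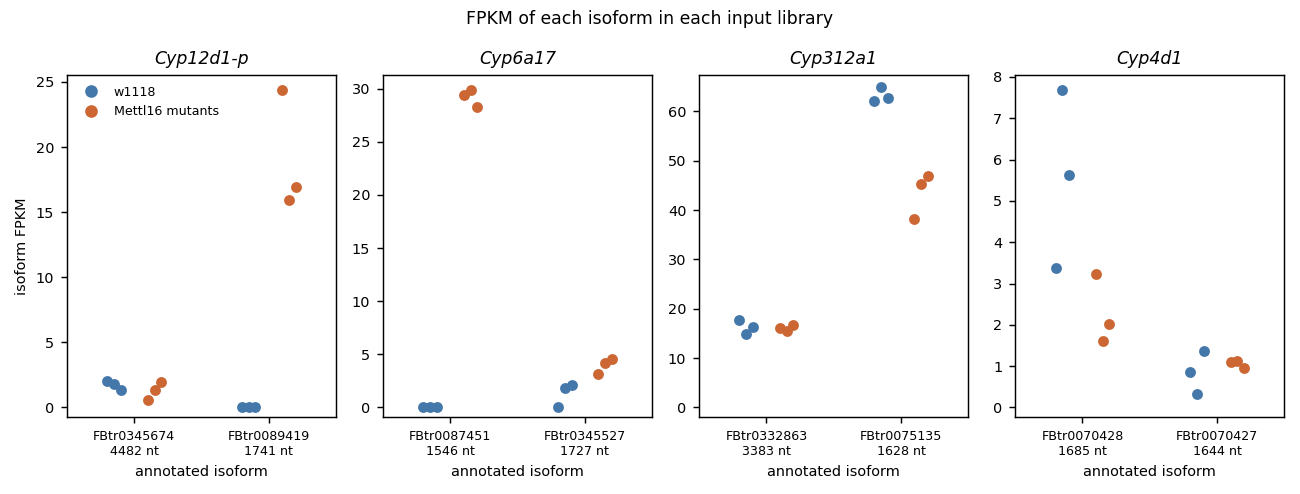
FPKM of each annotated isoform (name and length in nucleotides on the horizontal axis) in the w1118 (blue) and Mettl16 mutant (orange) input libraries for Cyp12d1-p, Cyp6a17, Cyp312a1 and Cyp4d1. FBtr0089419 of Cyp12d1-p and FBtr0087451 of Cyp6a17 were listed at 0 in all controls, whereas the long isoform of Cyp312a1 overlapped between genotypes.

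The deposited peak list of the mutants gave 70 m6A peaks in 59 of the 85 members, and 56 members had a peak with a false discovery rate (FDR) under 0.05. Each peak value is that of the 3 replicates together, so it carries no replicate error, and the peaks of *w1118* were not analysed here. Of the 70 peaks, 58 lay in 3' UTRs (82.9%, 95% Wilson interval 72.4% to 89.9%), beside 60.8% of all 21991 peaks. Another 9 lay in 5' UTRs and 3 in coding exons, those of *Cyp6a20*, *Cyp4p3* and *Cyp28c1*. The interval treats peaks as separate, although some share a gene. Of all 21991 peaks, 13377 lay in 3' UTRs, 4254 in 5' UTRs and 2112 in coding exons. The rest had annotations that no peak of a member had, so the bases differ, and the shares were not compared by a test. Median log2 enrichment, that is IP relative to input, was 2.03 for peaks of members and 2.32 for all peaks.

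The 10 members' peaks of highest enrichment at an FDR under 0.05 began with 3 in 5' UTRs. These were peaks of *Cyp49a1* (2R, 10456026 to 10458713) and *Cyp6v1* (X, 20657481 to 20658290), each with a log2 enrichment of 3.93, and of *Cyp312a1* (3L, 18132300 to 18132689) with 3.86. *Cyp49a1*, at 2.57 FPKM in the mutants, lies inside the span of *Galphao* on the other strand, at 16.4 FPKM there. Which of these 2 genes gave the peak was not tested. *Cyp4d21*, also known as a sex-specific enzyme of the male head fat body, followed with 3.79 in its 3' UTR (2L, 7607432 to 7607701). *Cyp313a1* had 3.45, *Cyp6w1* 3.38, *Cyp4ac2* and *Cyp301a1* 3.16 each, *Cyp4ac1* 3.02 and *Cyp6u1* 2.86, all in 3' UTRs. On the other strand, *tkv* (14.9 FPKM in the mutants) spans *Cyp4ac1* and *Cyp4ac2*, and *Pde6* (6.93 FPKM) spans *Cyp313a1*. *Cyp301a1* shares 48 bases with *Ak6* on the other strand, and *Cyp6u1* shares 989 bases with *CG30157* on its own strand. The gene of origin of these peaks was not tested either. The peak of *Cyp4g1*, in its 3' UTR (X, 467057 to 467417), had 2.05. A second peak stood in *Cyp312a1*, in the 3' UTR, with 1.34.

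Members under 0.5 FPKM in the mutants had a peak less often than members above that level, as was so over all genes. A peak at an FDR under 0.05 was listed for 2 of the 11 members under 0.5 FPKM in the mutants, 15 of 21 at 0.5 to 5 FPKM, 27 of 37 at 5 to 20 FPKM and 12 of 16 at 20 FPKM or more. The same shares over all genes were 10.1%, 63.7%, 88.3% and 92.8%. Above 0.5 FPKM the share thus rose with level over all genes, whereas that of members hardly changed. From 5 FPKM upward, members had a peak less often than all genes, and this difference was not tested. The 4 members above 20 FPKM without such a peak were *Cyp28a5*, *Cyp4e3*, *Cyp6a17* and *Cyp6g1*, and the peak of *Cyp6g1* (log2 enrichment 1.61) had an FDR of 0.16. In the tandem cluster near *Mettl16*, *Cyp6a20* held 2 peaks, 1 in the 3' UTR (2.48) and 1 in a coding exon (1.80). For *Cyp317a1*, 3 peaks were listed. Of these, 2 overlapped each other in the 5' UTR (14898312 to 14899582 and 14899192 to 14899579), each with 1.74. The other, in the 3' UTR (14901397 to 14901724), reached into *Kank* on the other strand, and its gene of origin was not tested. The peak of *Cyp6a23* had an FDR of 0.083. No peak was listed for *Cyp6a17*, *Cyp6a19*, *Cyp6a21*, *Cyp6a22*, *Cyp6a8* and *Cyp6a9*. Of the 14 members with large differences in level, 7 had a peak at an FDR under 0.05, beside 56 of all 85 members.

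**Figure D5:**
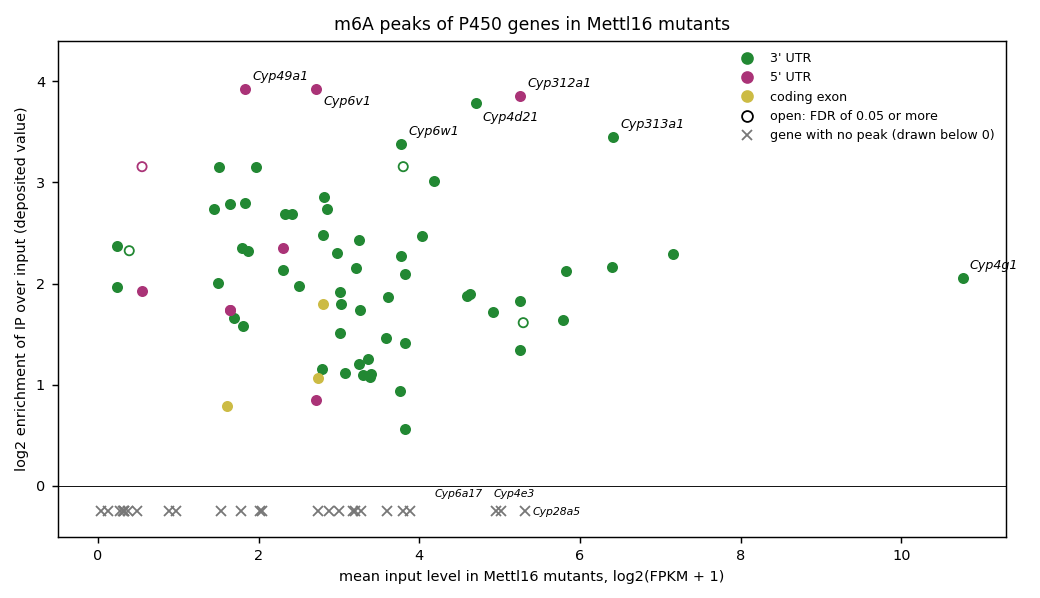
Log2 enrichment of IP over input at each P450 peak in Mettl16 mutants against the mean input level of the gene there, as log2(FPKM + 1); colours give the annotation, open circles an FDR of 0.05 or more, and crosses mark genes without a peak. The 3 highest peaks lie in 5' UTRs, and Cyp28a5, Cyp4e3 and Cyp6a17 have no peak in spite of a mean above 30 FPKM.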

How the data were processed

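After trimming (fastp) and quality checks (FastQC, RseQC), the authors mapped reads to fly genome version v107 by HISAT2 and obtained gene and isoform FPKM of the input libraries by StringTie. Read coverage per base is deposited beside isoform FPKM. The log2 enrichment of peaks and their adjusted p-values (FDR) were made by the authors with exomePeak on the 3 mutant replicates together. Libraries were stranded, and the strand setting of the counting was not given in the sources used here. The spans of 35 members overlapped another gene of at least 0.5 FPKM. Tool versions were not given in the sources used here.

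Genes averaging 0.5 FPKM or more (13866, including 75 of 85 members) were fitted with limma 3.58.1 (R 4.3.3) on log2(FPKM + 1) with trend, two-sided, Benjamini-Hochberg adjusted over all of them. Fold changes on that scale understate the change of low genes. Isoform shares were fitted as arcsine square roots for genes that had 2 or more isoforms and averaged 1 FPKM or more; calls needed an adjusted p below 0.05 together with a share shifted by more than 0.05. The fits were tested on simulated data. In 25 members with several isoforms, gene FPKM equalled the length-weighted sum of isoform FPKM over a fixed length within 0.1%. Aligned gigabases were computed from coverage and FPKM.

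Every member could be named. Full values were given for members called with a log2 fold change reaching 1 in size, the 10 highest in w1118, called members of the role lists with at least 10 FPKM, and the 10 most enriched peaks. Members and lists were chosen with earlier results of these data known. The deposited comparisons between genotypes (fold changes and p-values of genes and peaks) were not used. Left out were 9 further per-sample columns among gene values and 18 among isoform values. Peak starts were shifted by 1 base to count from 1. Gene identifiers were matched to a name table, which gave the same symbol for 84 of 85 members. Alternatives were another pseudocount, filters, size factors, a replicate block, no trend, and each library left out.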

Additional observations from a re-analysis of the deposited data

How the results depend on the processing

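The 14 large differences were called in the same direction under every alternative run (largest adjusted p 0.0044). Of the 48 called members, 39 were called under every alternative. The other 9 (*Cyp49a1*, *Cyp4ac1*, *Cyp4c3*, *Cyp4d1*, *Cyp4d21*, *Cyp4d8*, *Cyp6a22*, *Cyp6g2* and *Cyp9c1*) lost the call under 2 to 9 alternatives and none changed direction. With each library left out in turn, 19 to 23 members were higher and 21 to 27 lower. Without a filter on low values, 23 were higher and 22 lower.

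The replicate numbers did not pair the libraries: deviations from the genotype means correlated at -0.04, -0.06 and -0.03 between same-numbered libraries. With a replicate block, 21 members were higher and 26 lower, and 1 member had a called isoform share. Members with a called share numbered 1 to 2 when a library was left out. Without *w1118* replicate 1 the second was *Cyp6a17*, which has shares in the remaining libraries.

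Of the 27 members not called, 5 changed sign when a library was left out. The range of the log2 fold change was -0.060 to 0.062 for *Cyp4d2*, -0.045 to 0.14 for *Cyp6d5*, -0.045 to 0.054 for *Cyp9f2*, -0.092 to 0.012 for *Cyp18a1* and -0.091 to 0.23 for *Cyp304a1*.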

Other observations

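The 10 members under a mean of 0.5 FPKM were not tested, and their values are given with no explanation. *Cyp6a15Psi*, a pseudogene by its name, was listed at 0.00865, 0 and 0 FPKM in *w1118* and at 0.952, 0.816 and 0.782 FPKM in the mutants. Its neighbours on 2R were higher in all mutant libraries too. *Cyp6a14* was at 0.108, 0.112 and 0.131 FPKM in *w1118* and at 0.462, 0.428 and 0.498 FPKM in the mutants, and *Cyp6a13*, which was tested, rose from 8.19 ± 0.620 to 13.1 ± 0.947 FPKM (limma, log2 fold change 0.62 ± 0.08, adjusted p = 0.000376). *Cyp6t2Psi* was at 0.124, 0.0782 and 0.0831 FPKM in *w1118* and at 0.276, 0.217 and 0.278 FPKM in the mutants. *Cyp308a1* was lower without overlap, at 0.396 ± 0.0127 and 0.244 ± 0.0849 FPKM (SD, n = 3), and so was *Cyp6a19* of the cluster near *Mettl16*, below 0.1 FPKM in all 6 libraries. *Cyp303a1*, *Cyp313a2*, *Cyp313a5*, *Cyp316a1* and *Cyp6t3* overlapped between the genotypes. Of these, *Cyp303a1*, known from external sensory organs, was at 0.211 ± 0.0717 FPKM in *w1118*. In the mutants, 2 peaks were listed for its 3' UTR, with log2 enrichments of 2.37 and 1.96. On the other strand, *heix* shares 919 bases of its span, at 7.38 FPKM in *w1118* and 8.74 FPKM in the mutants. Whether these peaks belong to *Cyp303a1* or to *heix* was not tested.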
